A study of Mus musculus with 4 samples.

Results

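Transcripts of 6 genes of the hepatic acute phase and iron hormone response were followed in mouse liver, namely the serum amyloid A genes Saa2 (gene ID 20209) and Saa3 (20210), the orosomucoid genes Orm2 (18406) and Orm3 (18407), and the hepcidin genes Hamp (84506) and Hamp2 (66438). These 6 genes were picked by symbol out of the 943 genes in either of 2 deposited gene tables. A gene is in a table only if targeted and control liver differed in that feeding state by an absolute log2 ratio of at least 1, so the genotype ratios of the 6 genes chose them and are given here as a description. The refed table holds 284 genes, among them Saa2, Saa3, Orm2 and Hamp. The fasted table holds 722 genes, among them Saa3, Orm3 and Hamp2. Saa3 is the 1 member in both tables.

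The study measured total RNA of whole liver in 4 libraries, 1 per group, per the labels. The targeted refed and targeted fasted livers carry the genotype label L_Cyb5b_shCyb5a, a name that the series' design text expands with the word liver and that combines targeting of Cyb5b with a short hairpin RNA against Cyb5a. The control refed and control fasted livers are labelled wild type with the shNC hairpin, so all 4 groups carry a hairpin label. Strain, sex, age, the number of mice in a library, the promoter or vector behind either manipulation and the lengths of fasting and refeeding are not stated in the labels. Cytochromes b5 pass electrons to membrane enzymes, including those that remove the C4 methyl groups of sterols, and the series' title names that step. Both targeted transcripts were lower in the libraries labelled as targeted. Cyb5a stood at 166 TPM (a transcript level divided by transcript length and scaled to a fixed total per library) in targeted refed against 1274 TPM in control refed liver, and at 207 TPM in targeted fasted against 1686 TPM in control fasted liver. Cyb5b stood at 49.5 TPM in targeted refed against 174 TPM in control refed liver, and at 27.4 TPM in targeted fasted against 72.4 TPM in control fasted liver. Depth is not in the tables and was estimated at 13400000 to 13600000 reads per library. None of the 12 hepatocyte markers listed for the check of the tissue is in either table, so the liver label was not checked against them here.

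The acute phase response is the change in plasma proteins made by the liver during inflammation. Cytokines such as interleukin 6 and interleukin 1 reach hepatocytes and act through STAT3, NF-kB and C/EBP factors, which raise transcription of serum amyloid A, orosomucoid and other secreted proteins. Hepcidin, the product of Hamp, is the hormone that lowers iron export by binding ferroportin, and its gene responds both to the inflammatory STAT3 signal and to bone morphogenetic proteins that report iron stores. In mouse the hepcidin gene is duplicated, and the second copy, Hamp2, is not known to act on iron in the way Hamp does. Saa2 encodes a serum amyloid A that circulates with high-density lipoprotein and comes from hepatocytes, whereas Saa3 is also made by macrophages and adipocytes. Orm2 and Orm3 belong to the alpha-1-acid glycoprotein family, whose products are secreted plasma carriers.

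The members include copies of each other, and their control sequences can be compared directly. The sequences below are from RefSeq on GRCm38.p6, in which all 6 members have a promoter entry, and are read 5′ to 3′ on the strand of the gene. They are shown because the copies Hamp and Hamp2, and the copies Orm2 and Orm3, had different levels across the 4 libraries, and because short motifs linked to the responses above can be located in them. Positions count back from the base before the annotated start, which is -1. In the hepcidin pair, bases -150 to -51 are given, and capitals mark GGCGCC, the core of the bone morphogenetic protein responsive element, and TTCNNNGAA, the STAT motif.
Hamp (chr7:30944080-30944179, minus strand): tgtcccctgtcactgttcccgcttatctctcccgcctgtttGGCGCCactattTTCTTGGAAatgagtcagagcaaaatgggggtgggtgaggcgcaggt
Hamp2 (chr7:30924232-30924331, minus strand): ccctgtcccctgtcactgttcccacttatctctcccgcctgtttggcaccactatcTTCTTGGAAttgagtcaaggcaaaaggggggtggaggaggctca

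Over the 250 bases before the start, Hamp and Hamp2 were identical at 89.7% of the positions of their alignment, with gaps counted as differences here and in each identity below. The STAT motif lies at -97 to -89 in Hamp and at -94 to -86 in Hamp2, with the same 9 bases. The GGCGCC motif lies at -109 to -104 in Hamp, and the aligned bases of Hamp2 carry the substitution G4A, counted from 1 at the first base of the motif, so Hamp2 has no match in this window. Searched on both strands, TTCNNNGAA is in 7.02% and GGCGCC in 9.59% of the 32851 RefSeq promoters of this length.

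For the serum amyloid and orosomucoid genes, 30 bases around each match to TTNNGCAA, a form of the C/EBP motif, are given. Matches on either strand are in capitals. On both strands this motif is in 9.56% of the same promoters.
Saa2 (chr7:46751639-46751668, plus strand): ctgtgctcccaTTGCACAAtgagggaaaat
Saa3 (chr7:46715757-46715786, minus strand): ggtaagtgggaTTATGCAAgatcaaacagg
Orm2 (chr4:63362318-63362347, plus strand): gagagaacattTTGCGCAAgacatttccca
Orm3 (chr4:63356026-63356055, plus strand): gagggaacattTTGCACAAgacatttatca

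The match starts at -183 in Saa2, -99 in Saa3, -120 in Orm2 and -121 in Orm3. In Saa2 it is on the strand opposite to the printed one, and in Saa3 on the printed strand. The Saa3 gene is annotated at chr7:46711998-46719615 and the Orm3 gene at chr4:63356069-63359506. The starts used for Saa3 and Orm3 lie inside those spans, so their positions and the identities below depend on the start used. In Orm2 it is a palindrome that matches on both strands, and the aligned bases in Orm3 carry the substitution G5A, counted from 1 at the first base of the motif, and match on the minus strand. The 250 bases before the start are 85.5% identical between Orm2 and Orm3 and 47.9% identical between Saa2 and Saa3. Neither hepcidin promoter holds a C/EBP match, and neither the Saa nor the Orm promoters hold a match to the other motifs in this window. These are matches of letters, and binding was not measured.

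Copies of this kind can share reads, which limits the single values. The spliced transcripts of Hamp and Hamp2 in GENCODE M21 are 92.4% identical, and 16.6% of the 50-base windows of Hamp occur in Hamp2. Saa2 is 93.9% identical to Saa1, which has 13.3% of its 50-base windows. Orm2 is 91.0% identical to Orm1, which has 20.4% of its windows, and 88.0% identical to Orm3. Saa3 and Orm3 share 1.78% and 3.59% of their windows with another gene. Read length and the treatment of reads that map to several genes are not stated in the labels or headers. Saa1 and Orm1 were not analysed here.

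The serum amyloid transcripts were at their highest in targeted refed and at their lowest in targeted fasted liver. Saa2 stood at 367 TPM in targeted refed and 177 TPM in control refed liver, and at 76.3 TPM in targeted fasted and 112 TPM in control fasted liver. All 4 levels of Saa2 differed from the next in order by more than counting error. Saa3 stood at 59.8 TPM in targeted refed and 27.9 TPM in control refed liver, and at 21.8 TPM in targeted fasted and 52.2 TPM in control fasted liver. For Saa3 the levels fell into a high pair, targeted refed and control fasted, and a low pair, control refed and targeted fasted, and within each pair the 95% counting interval of the ratio includes 1 (0.960 to 1.37 and 0.964 to 1.71). These pairs depend on the scale. In FPKM (fragments per kilobase of transcript, scaled to the library's total), the ratio of targeted refed over control fasted liver was 1.20 (1.0008 to 1.43) and that of control refed over targeted fasted liver 1.57 (1.18 to 2.10), and neither interval includes 1. Saa3 made up 14.0% of the summed Saa2 and Saa3 level in targeted refed, 13.6% in control refed, 22.2% in targeted fasted and 31.8% in control fasted liver.

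The 2 orosomucoid transcripts were ordered differently from each other. Orm2 stood at 73.4 TPM in targeted refed and 33.9 TPM in control refed liver, and at 96.1 TPM in targeted fasted and 127 TPM in control fasted liver. Both fasted levels of Orm2 were thus above both refed levels. Orm3 was the least abundant member, at 3.78 TPM in targeted refed and 2.01 TPM in control refed liver, and at 9.67 TPM in targeted fasted and 3.0 TPM in control fasted liver. Its values rest on 33, 19, 67 and 26 reads in that order, the first estimated from FPKM. The targeted fasted level was above the next by more than counting error, and neither of the 2 steps below it was. Orm3 made up 9.14% of the summed Orm2 and Orm3 level in targeted fasted and 2.31% in control fasted liver.

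Hamp was the most abundant member in all 4 libraries. It stood at 1508 TPM in targeted refed and 768 TPM in control refed liver, and at 1554 TPM in targeted fasted and 1390 TPM in control fasted liver. Control refed liver was thus the 1 low library. The 2 targeted libraries differed by less than counting error in TPM, but not in FPKM, in which the refed one was 1.17-fold higher (1.10 to 1.24). Hamp2 stood at 129 TPM in targeted refed and 104 TPM in control refed liver, and at 233 TPM in targeted fasted and 47.7 TPM in control fasted liver. For Hamp2 the 1 low library was control fasted, in which Hamp was close to its targeted level. Hamp2 made up 13% of the summed hepcidin level in targeted fasted and 3.32% in control fasted liver, and 7.90% in targeted refed and 11.9% in control refed liver.

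**Figure D1:**
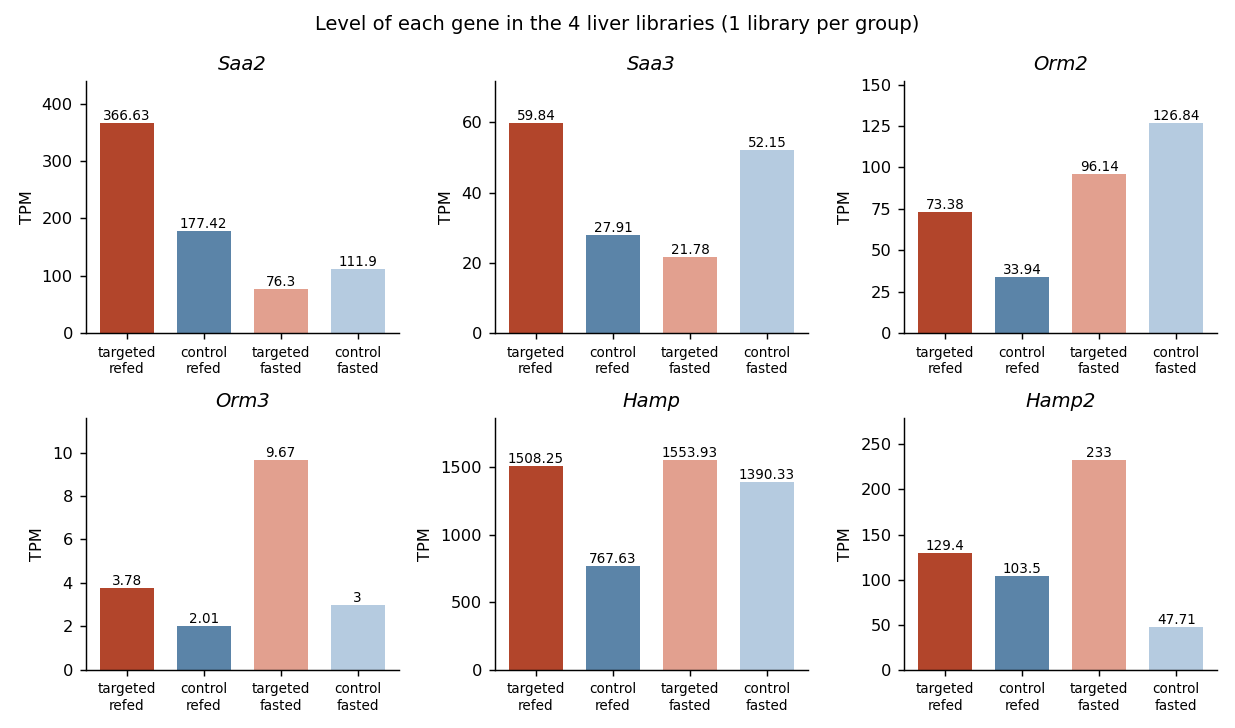
Level of each of the 6 genes in TPM (y axis, from 0, a separate scale for each gene) in the targeted refed, control refed, targeted fasted and control fasted liver libraries, 1 library per bar. Saa2 and Saa3 are highest in targeted refed liver, Orm3, Hamp and Hamp2 in targeted fasted liver and Orm2 in control fasted liver.

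The refed comparison sets targeted against control liver after food. All 6 members were higher in targeted refed liver by TPM, 3 of them by 2-fold or more and none lower. Of the 943 genes in either table, 27.6% were higher and 7.21% lower by at least 2-fold, and 76.0% were higher by any amount. The refed table has 78.2% of its genes higher and 21.8% lower by the log2 ratio in the authors' deposited table, and the 4 members listed there are all higher. This contrast chose those 4, so nothing is read from their count. The TPM ratio of targeted over control was 2.07 for Saa2 (95% counting interval 1.89 to 2.26), 2.14 for Saa3 (1.73 to 2.66), 2.16 for Orm2 (1.84 to 2.55) and 1.965 for Hamp (1.83 to 2.11). The intervals of these 4 ratios overlap. This ratio chose all 4 and they lie near its threshold, so nothing is read from that overlap. The log2 ratio in the authors' deposited table is 1.06 for Saa2, 1.07 for Saa3, 1.12 for Orm2 and 1.02 for Hamp, so Hamp stands just inside the tables' threshold of 1. The 2 members chosen in the fasted state only were outside it, at 1.88 for Orm3 (1.04 to 3.50) and 1.25 for Hamp2 (1.04 to 1.51). Their absence from the refed table left a ratio below 2-fold likely in advance, so nothing is read from it. The median log2 TPM ratio of the 6 members was 1.01, and that of all 943 genes 0.48.

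The intervals cover counting error only, since each group has 1 library, and the spread between mice is unknown for every ratio given here. No difference between conditions was tested for that reason. Reads were recovered from the deposited p-values where a table compares the libraries, and were estimated from FPKM for Saa2, Orm2 and Hamp in both fasted livers and for Orm3 and Hamp2 in targeted refed liver, so the intervals that use those libraries are approximate. In whole liver, a larger share of cells that express a gene and more RNA of it per cell cannot be told apart.

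The fasted comparison sets targeted against control liver without recent food, and here the members divided. Hamp2 and Orm3 were higher in targeted fasted liver, with TPM ratios of 4.88 (3.86 to 6.23) and 3.22 (2.02 to 5.28). Saa3 was lower, by 2.39-fold (1.85 to 3.12). These are the 3 members chosen in this contrast. Of the genes in either table with a ratio, 25.2% were higher and 36.7% lower by at least 2-fold. The fasted table has 30.3% of its genes higher by the log2 ratio in the authors' deposited table, among them Hamp2 at 2.11 and Orm3 at 1.37, and 69.7% lower, among them Saa3 at -1.52. The other 3 are absent from the fasted table, so a ratio within 2-fold was largely set in advance. Saa2 was 1.47-fold lower (1.26 to 1.72), Orm2 1.32-fold lower (1.18 to 1.48) and Hamp 1.12-fold higher (1.05 to 1.19). On the FPKM scale Hamp stood at 1033 in targeted fasted against 1066 in control fasted liver, a ratio of 0.969 (0.911 to 1.03), so its direction in this state depends on the scale. The median log2 TPM ratio of the members was -0.12, against -0.86 over the genes in either table.

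**Figure D2:**
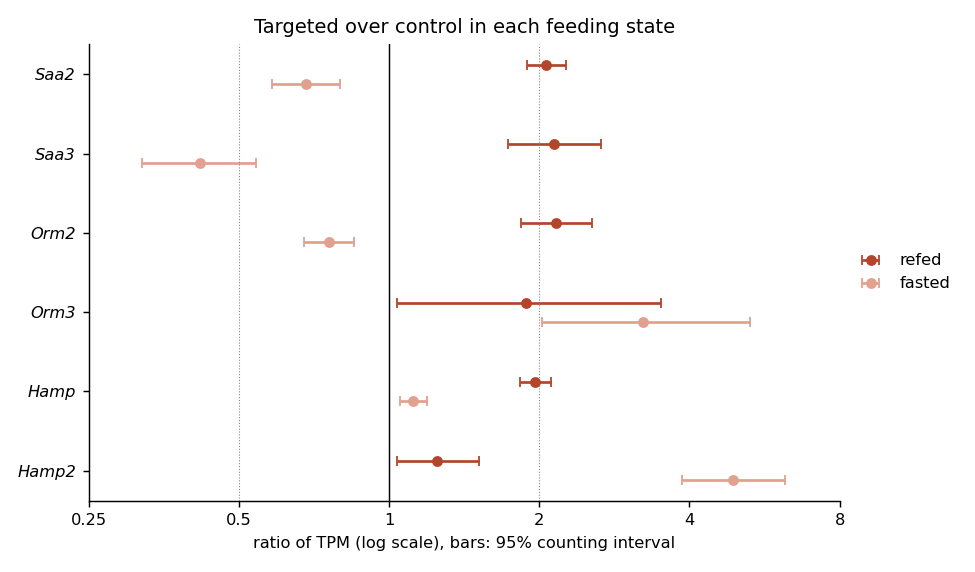
Ratio of TPM in targeted over control liver (x axis, log scale) for each gene in the refed and in the fasted state, with 95% counting intervals as bars and dotted lines at 2-fold. All 6 refed points lie right of 1, from 1.25 for Hamp2 to 2.16 for Orm2, while fasted Saa2, Saa3 and Orm2 lie left of 1 and fasted Hamp2 is at 4.88.

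Set beside each other, the genotype ratios of the 2 feeding states had opposite directions for Saa2, Saa3 and Orm2, on both the TPM and the FPKM scale. Among the genes in either table, 76.0% were higher in the refed and 63.2% lower in the fasted comparison by TPM. The share with both was not counted, so these directions are not read as particular to the members. The refed genotype ratio was 5.13 times the fasted one for Saa3 (3.70 to 7.13), 3.03 times for Saa2 (2.54 to 3.62) and 2.85 times for Orm2 (2.34 to 3.47). For Hamp it was 1.76 times the fasted one (1.60 to 1.93). Hamp2 went the other way, with a refed genotype ratio 0.256 times the fasted one (0.190 to 0.344). For Orm3 the value was 0.583 with an interval of 0.283 to 1.20, so no difference between the states was detectable at 19 to 67 reads. Choosing genes by a threshold in 1 state favours such differences.

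**Figure D3:**
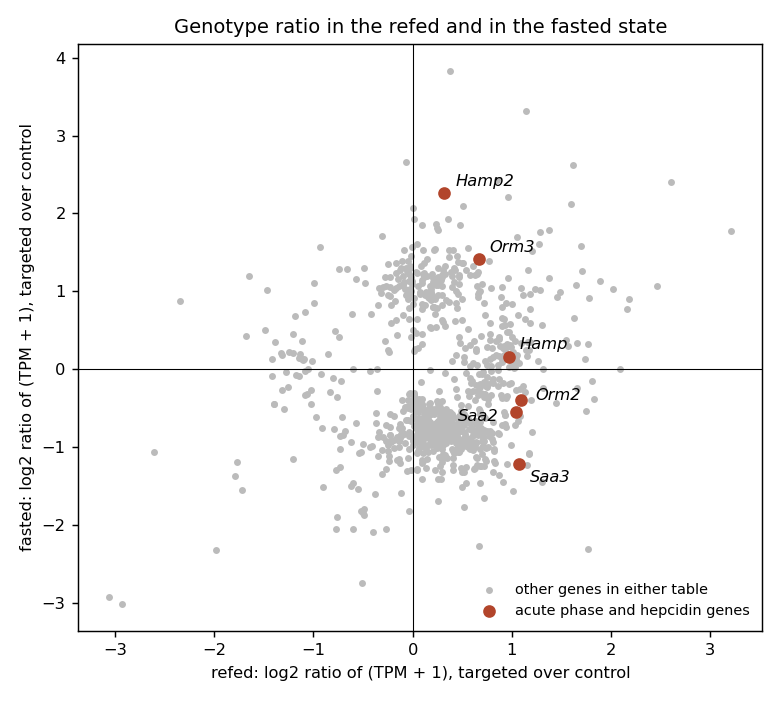
Log2 ratio of TPM + 1 in targeted over control liver in the refed state (x axis) and in the fasted state (y axis), with the 6 genes in red and labelled and the other genes of either table in grey. Saa2, Saa3 and Orm2 lie in the lower right quadrant, with a positive refed and a negative fasted ratio, and Hamp2, Orm3 and Hamp in the upper right.

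By TPM, refeeding was then compared with fasting within each genotype, a contrast that did not choose the members but shares its 4 libraries with those that did. In targeted liver, Saa2 stood 4.81-fold higher (4.21 to 5.50) and Saa3 2.75-fold higher (2.14 to 3.57) in refed than in fasted animals, whereas Orm3 was 2.56-fold lower (1.66 to 4.01). Of the genes in either table, 23.4% were at least 2-fold higher and 18.0% at least 2-fold lower in this contrast. Hamp2 was 1.80-fold lower (1.53 to 2.12) and Orm2 1.31-fold lower (1.15 to 1.49), and the ratio for Hamp was 0.971 (0.915 to 1.03). By FPKM, targeted Hamp was 1206 in refed and 1033 in fasted liver, the opposite direction, and the ratio for Orm2 was 0.918 with an interval of 0.808 to 1.04, which includes 1.

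In control liver the same contrast gave other values. Orm2 was 3.74-fold lower (3.21 to 4.37) in refed than in fasted control liver, and Hamp was 1.81-fold lower (1.69 to 1.95). Hamp2 was 2.17-fold higher (1.68 to 2.82), the 1 member of the 6 at least 2-fold higher, in a set of genes of which 17.0% were that much higher and 44.9% that much lower. Saa2 was 1.59-fold higher (1.41 to 1.79) and Saa3 1.87-fold lower (1.50 to 2.33), so the serum amyloid genes differed in direction in control liver and shared it in targeted liver. For Orm3 the interval of the ratio, 0.351 to 1.26, includes 1. The authors' deposited table gives a log2 ratio of refed over fasted control of 1.18 for Hamp2, -0.84 for Saa3 and -0.45 for Orm3. The median log2 TPM ratio of refed over fasted was -0.22 for the members and 0.27 for all listed genes in targeted liver, and -0.72 and -0.84 in control liver.

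**Figure D4:**
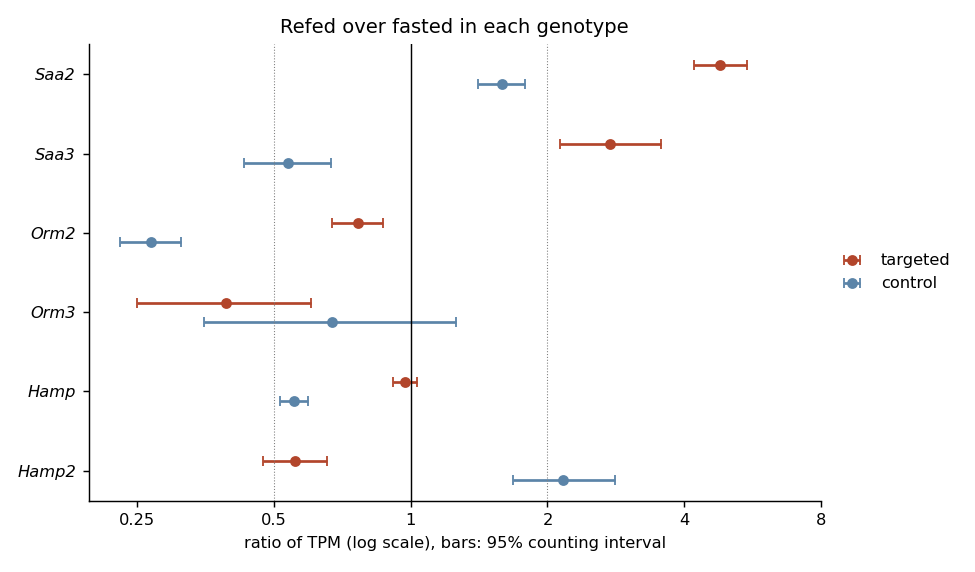
Ratio of TPM in refed over fasted liver (x axis, log scale) for each gene in targeted and in control liver, with 95% counting intervals as bars and dotted lines at 2-fold. Saa2 is right of 1 in both genotypes, Orm2 and Orm3 are left of 1 in both, with an Orm3 control interval that includes 1, and Saa3 and Hamp2 lie on opposite sides of 1 in the 2 genotypes.

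Other genes of the response were taken from lists of acute phase proteins, of their signalling and of iron handling. Of 37 positive acute phase genes, 9 were in either table, 4 of them members. The other 5 were Cd14 (the endotoxin co-receptor), Il1rn (the interleukin 1 receptor antagonist), the metallothioneins Mt1 and Mt2, and the protease inhibitor gene Serpina1e. Of these, 2 were in the refed table, both higher, where 78.2% of the genes are higher in the authors' deposited table. The fasted table holds 4, all lower, where 69.7% are lower. Il1rn stood at 3.77 TPM in targeted refed and 1.81 TPM in control refed liver, and at 4.94 TPM in targeted fasted and 7.13 TPM in control fasted liver, an order over the libraries like that of Orm2. Mt2, a metal-binding protein, stood at 30.5 TPM in targeted refed and 13.01 TPM in control refed liver, and at 381 TPM in targeted fasted and 810 TPM in control fasted liver. Serpina1e, one of a family of similar copies, was lower in targeted liver in both states, at 7226 TPM in targeted refed against 10275 TPM in control refed liver and at 501 TPM in targeted fasted against 3358 TPM in control fasted liver. None of the 10 negative acute phase genes on the list is in either table.

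Of 24 signalling genes, 6 were in either table. The 5 in the fasted table were all lower in targeted liver, namely the cytokine gene Il1b, the receptor genes Il1r1 and Osmr, and the transcription factor genes Cebpb and Fos. Of that table's genes, 69.7% are lower, and this contrast chose the 5, so nothing is read from their count. Cebpb, which encodes a C/EBP factor, stood at 58.7 TPM in targeted fasted and 120 TPM in control fasted liver, 2.04-fold lower (1.87 to 2.22). Refed liver had 26.0 TPM of Cebpb when targeted and 24.8 TPM as control, a ratio of 1.05 (0.913 to 1.21). Il1b rested on 10 reads in targeted fasted and 38 reads in control fasted liver and was 3.27-fold lower (1.60 to 7.37). Tlr4, the endotoxin receptor, was the 1 signalling gene in the refed table, 2.28-fold higher in targeted liver (1.55 to 3.42). Of the refed table's genes, 78.2% are higher. The genes Il6, Stat3 and Socs3 on this list are in neither table and were not analysed here.

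Of the 46 iron genes, 7 were in either table, Hamp and Hamp2 among them. Of the other 5, the 3 in the fasted table were all lower in targeted liver, as were 69.7% of that table's genes. The fasted contrast chose the 3, so nothing is read from their count. Bmp2 and Bmp6, endothelial ligands that induce hepcidin and are on the endothelial marker list too, were 2.47-fold (2.05 to 2.98) and 2.03-fold lower (1.41 to 2.96), and Smad7, an inhibitor of that pathway, was 2.05-fold lower (1.50 to 2.83). In the same comparison Hamp was within 1.12-fold and Hamp2 4.88-fold higher. Atoh8 and Slc40a1, the other 2, were in the refed table, both higher in targeted liver, as were 78.2% of that table's genes. Slc40a1, which encodes ferroportin, the iron exporter that hepcidin binds, stood at 66.4 TPM in targeted refed and 32.3 TPM in control refed liver, a ratio of 2.06 (1.92 to 2.20). In the fasted state Slc40a1 stood at 82.2 TPM in targeted and 81.7 TPM in control liver, a ratio of 1.01 (0.955 to 1.06). By FPKM it was 1.15-fold lower in targeted fasted liver, so its fasted ratio depends on the scale. Atoh8, a transcription factor gene that responds to bone morphogenetic proteins, was 2.11-fold higher in targeted refed liver (1.65 to 2.70) and had a fasted ratio of 1.11 (0.913 to 1.34). By FPKM the fasted direction of Atoh8 was the opposite, 1.04-fold lower in targeted liver.

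Over these 16 genes, 14 were higher in targeted refed than in control refed liver by TPM, and 14 were lower in targeted fasted than in control fasted liver. By FPKM the counts were 13 and 16. Of the genes in either table, 76.0% were higher in the refed and 63.2% lower in the fasted comparison by TPM, and these 16 genes were all selected on one of the same differences.

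**Figure D5:**
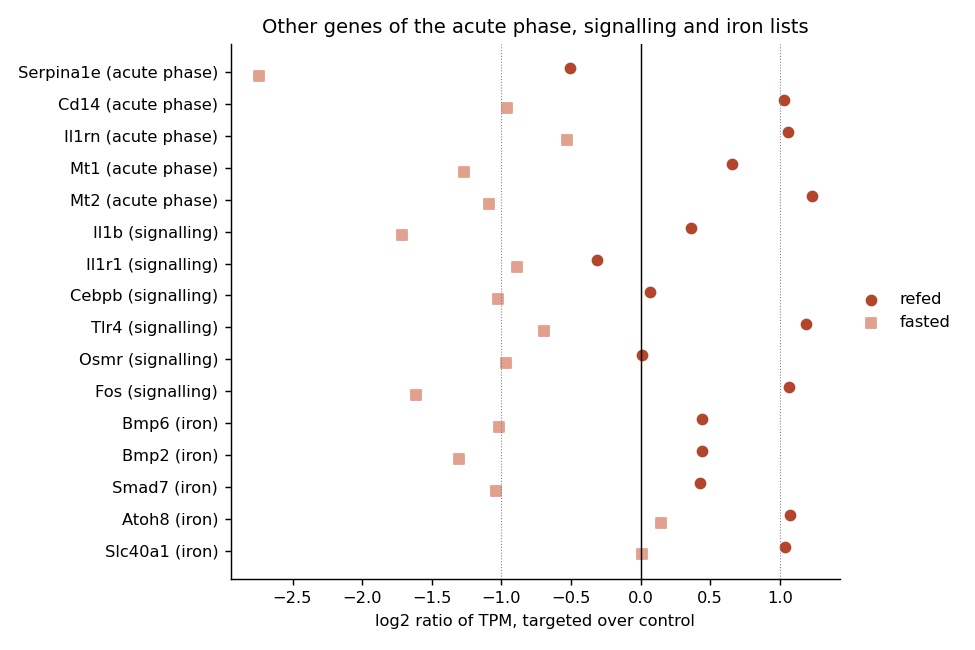
Log2 ratio of TPM in targeted over control liver (x axis) for the 16 other genes of the acute phase, signalling and iron lists that are in either table, in the refed state (circles) and the fasted state (squares), with dotted lines at 2-fold. Refed points are right of 0 for all but Serpina1e and Il1r1, and fasted points are left of 0 for all but Atoh8 and Slc40a1.

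Markers of other liver cells were followed in the same libraries. Of 70 markers of macrophages, neutrophils, endothelium, lymphocytes, adipocytes and blood, 24 were in the fasted table, all 24 lower in targeted liver, and 2 were in the refed table, both higher. The fasted table as a whole has 69.7% of its genes lower, and the refed one has 78.2% higher. The 3 listed of 16 macrophage and Kupffer cell markers, Marco, Timd4 and Fcgr1, summed to 22.9 TPM in targeted refed and 10.8 TPM in control refed liver, and to 15.95 TPM in targeted fasted and 40.4 TPM in control fasted liver. Marco, a scavenger receptor gene, had ratios of 2.78-fold higher in refed and 2.95-fold lower in fasted targeted liver. The 2 listed of 14 neutrophil markers, S100a9 and Il1b, summed to 12.6 TPM in targeted refed and 10.1 TPM in control refed liver, and to 6.02 TPM in targeted fasted and 18.2 TPM in control fasted liver. The 12 listed of 15 endothelial markers, of which Oit3 and Lyve1 had the largest genotype ratios, summed to 112 TPM in targeted refed and 71.5 TPM in control refed liver, and to 103 TPM in targeted fasted and 219 TPM in control fasted liver. Of 12 lymphocyte markers 4 were listed, with summed levels of 9.19 TPM in targeted refed and 5.61 TPM in control refed liver, and of 5.22 TPM in targeted fasted and 18.6 TPM in control fasted liver. The adipocyte marker Fabp4 stood at 36.3 TPM in targeted refed and 29.3 TPM in control refed liver, and at 23.0 TPM in targeted fasted and 52.3 TPM in control fasted liver. The 3 listed haemoglobin genes of 7 blood markers summed to 217 TPM in targeted refed and 158 TPM in control refed liver, and to 161 TPM in targeted fasted and 312 TPM in control fasted liver. Only 25 of the 70 markers are in either table, and these genotype differences selected each of them. The size of their ratios was thus set in part in advance, and the sums leave out the other markers. The sums share with Saa2, Saa3 and Orm2 the direction of the genotype ratio in each state, and their part in those results was not tested. None of the listed markers was at 0 in any library.

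The genes most like each member were ranked by the distance between log2 levels of TPM + 1 over the 4 libraries, each gene centred on its own mean, among the other genes in either table with at least 1 TPM in 1 library. With 4 points per gene the ranking is a description. Nearest to Saa3 were Tmsb4x, Gngt2 and Slfn2, at distances of 0.266, 0.298 and 0.323, and nearest to Orm2 were the endothelial marker Lyve1, Il1rn and Stmn1, at 0.239, 0.311 and 0.347. Nearest to Hamp were Cpeb2, Slc8b1 and Map4k4, at 0.0607, 0.162 and 0.178. Nearest to Orm3 were Fam13a and the detoxification genes Gstt3 and Ugt1a9, at 0.119, 0.195 and 0.201. Orm3 ranged from 2.01 to 9.67 TPM, and the added 1 moved its fasted log2 genotype ratio to 1.42 from 1.69. The distances and ranks of Orm3 thus depend on the added 1. So do those of Lyve1, at 2.26 to 13.3 TPM, and Il1rn, at 1.81 to 7.13 TPM. Saa2 had Clec2h close by, at 0.106, followed by Derl3 at 0.410 and Ihh at 0.508. Clec2h ranged from 0.4 to 5.66 TPM, Derl3 from 0.94 to 6.48 TPM and Ihh from 0.04 to 2.24 TPM. The added 1 narrows differences at such levels, so these distances depend on it. Hamp2 had no gene within 0.5, and its nearest were Taco1, LOC115489126 and Ly6d, at 0.546, 0.556 and 0.566. LOC115489126, at 0.24 to 3.27 TPM, is limited by the added 1 in the same way. No member was among the 3 nearest of another, and the copies lay 1.66 apart for Hamp and Hamp2, 1.36 for Orm2 and Orm3, and 1.28 for Saa2 and Saa3. Among 870 ranked genes, Saa3 was 89th from Saa2, Orm2 198th from Orm3 and Hamp 222nd from Hamp2. In the other direction, Saa2 was 440th from Saa3, Orm3 455th from Orm2 and Hamp2 695th from Hamp.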

How the data were processed

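The 2 deposited gene tables were used. Per the file headers, the authors give TPM and FPKM for 4 libraries, a log2 ratio and a p-value of 2 libraries. For library preparation, aligner, annotation, genome build and the making of the ratio: not given in the sources used here. Of the deposited p-values within numerical range, 92.8% to 97.6% per comparison matched, within a relative tolerance of 0.001, a doubled Audic-Claverie tail of whole reads. Every member's did, which returned its reads in the libraries compared. They compare reads of 2 libraries and were not used as tests. Where a library had no recovered reads, reads were estimated from FPKM, an estimate with a median error of 0.534% on 2030 recovered values (90th percentile 5.11%). Recovery was checked on simulated data. Ratios are of TPM without a pseudocount. Their 95% Clopper-Pearson intervals of the read ratio, moved to the TPM ratio, cover counting error of reads only. PCR copies of a molecule count as separate reads, which the intervals do not take into account. Ratios of refed over fasted liver have the same kind of interval. Only the refed genotype ratio over the fasted one used a normal interval on the log scale, from the same reads. Depth came from reads, FPKM and GENCODE M21 lengths of genes with 1 transcript (medians over 24 to 90 genes). TPM over FPKM was 1.25 in targeted refed, 1.23 in control refed, 1.504 in targeted fasted and 1.30 in control fasted liver, so fasted ratios depend on the scale. Analyses used Python 3.11.15, numpy 2.4.6, scipy 1.17.1, pandas 2.3.3 and matplotlib 3.10.9. Members and lists were chosen with earlier results of these data known. Genes named are the members, all listed genes of the acute phase, signalling and iron lists, up to 2 markers per cell type, the 3 genes most like each member, and the targeted genes.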

Additional observations from a re-analysis of the deposited data

Results flagged for a closer look

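For 3 members, genotype ratios had opposite directions in the refed and fasted states with counting intervals that leave out 1 in each. The refed ratio chose all 3, and the fasted ratio chose Saa3 too, so these intervals are a description. Of the genes in either table, 76.0% were higher in the refed and 63.2% lower in the fasted comparison by TPM. The log2 ratio of targeted over control liver was 1.05 in the refed and -0.55 in the fasted state for Saa2, a difference of 1.60. For Saa3 it was 1.10 in the refed and -1.26 in the fasted state, a difference of 2.36. For Orm2 it was 1.11 in the refed and -0.40 in the fasted state, a difference of 1.51. With 1 library per group the difference between states was not tested against the spread between mice.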

How the results depend on the processing

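The number of members past 2-fold was 3 in targeted over control refed, 3 in targeted over control fasted, 3 in refed over fasted targeted and 2 in refed over fasted control liver, and kept these values with FPKM, with 1 added to TPM, and with members at 1 TPM or more, which left out no member. By the authors' deposited log2 ratio the number was 4 in the refed and 3 in the fasted genotype comparison, and 1 for refed over fasted control, where the table lists 3 members. By TPM the refed genotype count was 3 higher and 0 lower, where 27.6% and 7.21% of the genes in either table were. The fasted one was 2 higher and 1 lower, against 25.2% and 36.7%. Refed over fasted gave 2 and 1 in targeted liver, against 23.4% and 18.0%, and 1 and 1 in control liver, against 17.0% and 44.9%. Nothing is read from these counts. The median log2 ratio of the members with FPKM moved to -0.33 from -0.12 in the fasted genotype comparison and turned to 0.0502 from -0.22 for refed over fasted targeted liver. The log2 ratio of Hamp in the fasted genotype comparison turned to -0.0455 from 0.16 with FPKM, and that of Orm2 moved to -0.61 from -0.40. For refed over fasted targeted liver, FPKM gave 2.53 for Saa2 (2.26 by TPM), -0.12 for Orm2 (-0.39), 0.22 for Hamp (-0.04) and -0.58 for Hamp2 (-0.85). The cause of the scale difference was not tested. No paired analysis was possible because each group has 1 library, and none could be left out. Total reads per library were only estimated, the spread between mice is unknown, and Orm3, at 19 to 67 reads, is the member most limited by depth.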
